A study of Caenorhabditis elegans with 4 samples.

Results

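The regions described are the peaks of HPL-2::GFP binding on chromosome IV of Caenorhabditis elegans, taken as every peak of the authors' combined list whose chromosome is IV. There are 478 of them among 2162 peaks on 6 chromosomes. The same chromosome holds 278 of the 1288 peaks of ChIP replicate 1 and 39 of the 177 peaks of ChIP replicate 2. The study precipitated chromatin with antibodies against GFP and sequenced the recovered DNA (ChIP-seq) in 2 ChIP samples, with 2 Input samples of DNA from the extract before precipitation. All 4 samples were hermaphrodites of strain YL474, labelled as starved first-stage larvae (L1) and kept at 20 degrees Celsius, and were crosslinked with 2% formaldehyde. Each carried lin-35(n745) on I, unc-119(ed3) on III and the transgene vrIs64, in which the ges-1 promoter drives HPL-2 with GFP and FLAG tags and unc-119(+) is the marker. The labels give an outcross number of 0 and list no deletion of the native hpl-2 gene. No group without the lin-35 mutation and no ChIP of untagged larvae was analysed here, so the binding described is that of 1 genotype and non-specific recovery was not measured. The fusion is made in the intestine, per the labels, while the extract is of whole larvae. Intestinal origin cannot be checked from peak positions. A gene table on another build places ges-1 on V and hpl-2 and unc-119 on III. Extra copies of those genes in the transgene therefore match no native locus on IV, but where vrIs64 is integrated was not known from the labels.

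HPL-2 belongs to the heterochromatin protein 1 family of C. elegans, whose members bind methylated histones of silent chromatin through a chromodomain. LIN-35 is the worm retinoblastoma homologue. Both hpl-2 and lin-35 belong to the synMuv genes, which restrain vulval fates and keep germline genes off in somatic tissue such as the intestine. Worm autosomes have arms that are rich in repeats and heterochromatin marks, and centres that hold more of the broadly expressed genes. Chromosome IV is also known for carrying most of the worm's piRNA genes. No gene position on the build of these peaks was used here, so peaks are named by position on WormBase WS220.

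Chromosome IV had the most peaks per Mb of the 6 chromosomes in the combined list, and the lowest median width, and peaks as deposited covered no more of it than of the rest of the genome. It held 27.4 peaks per Mb (exact Poisson 95% interval 25 to 29.98), against 20.4 per Mb (19.5 to 21.4) over the other 5 chromosomes together. The order was not the same in the replicate lists: in replicate 1 IV had 15.9 per Mb and II 17.1, and in replicate 2 IV had 2.24 per Mb and X 2.33. In the combined list its 22.1% of all peaks (exact 95% interval 20.4 to 23.9%) stood on 17.5% of the length. The median width was 358.5 bp on IV (order-statistic 95% interval 343 to 379 bp), against 410 bp (397 to 425 bp) elsewhere. The medians of the other chromosomes lay between 395 bp on III and 446 bp on X. Peaks covered 220.5 kb of IV, or 1.26% of its length, and 1.27% of the rest. With peaks less than 1 kb apart merged, gaps included, the order turned, with 1.51% of IV and 1.41% of the rest covered. The replicate lists gave like values: 0.824% of IV and 0.836% of the rest were covered in replicate 1, and 0.119% of IV and 0.12% of the rest in replicate 2. In the replicate lists the median width was 390.5 bp on IV and 456.5 bp elsewhere (replicate 1), and 394 bp on IV and 576.5 bp elsewhere (replicate 2). These intervals allow for counting error alone and take each peak as independent of its neighbours. No difference between chromosomes was tested, since peaks are not replicates, the number of samples is 2, and IV was chosen because it was known to be dense.

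**Figure D1:**
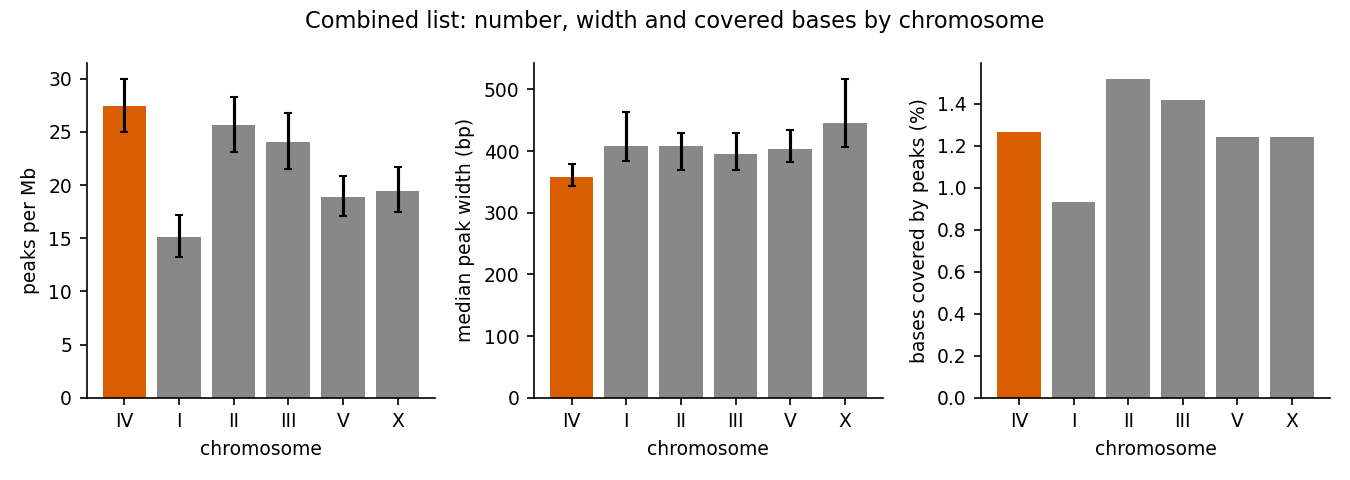
Peaks per Mb, median peak width in bp and percent of bases covered by peaks for each chromosome in the combined list, with IV in orange and the other chromosomes in grey. Error bars are 95% intervals (exact Poisson for peaks per Mb, order statistics for the median width; none for covered bases). IV stands highest in number (27.4 per Mb) and lowest in width (358.5 bp), and its covered share (1.26%) lies between those of I (0.935%) and II (1.52%).

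In the combined list IV had more very short and fewer broad peaks. Of the IV peaks, 38 (7.95%) were under 100 bp, against a share of 5.46% over all chromosomes, and 7 (1.46%) were 2 kb or wider, against 3.47%. The share of short peaks was not higher on IV in the replicate lists: under 100 bp were 7 IV peaks of replicate 1 (2.52%), against 2.77% elsewhere, and 0 peaks of replicate 2 on any chromosome. The narrowest IV peak was 2 bp long and the widest 4543 bp. Where both ChIP lists held a peak, the median width was 714 bp on IV and 975 bp elsewhere. Among those found in replicate 1 only it was 408 bp on IV and 475 bp elsewhere, and among those found in neither list 281.5 bp on IV and 326.5 bp elsewhere. The median was lower on IV in these 3 classes. The fourth class, found in replicate 2 only, went the other way on few peaks, with 345 bp for 2 peaks on IV and 308 bp for 7 elsewhere. The median -log10 of the authors' q-value, which is the only strength the lists give, was 3.08 on IV and 3.17 elsewhere. Among peaks found in both ChIP lists it was 11.7 on IV and 18.9 elsewhere. It was 4.06 and 4.23 among those in replicate 1 only, and 2.37 and 2.40 among those in neither. Those in replicate 2 only went the other way, with 3.18 on IV and 2.97 elsewhere.

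By rank over all chromosomes, the share of peaks on IV was lower among the 100 strongest than further down the list. IV makes up 17.5% of the length. IV held 3 of the 25 strongest combined peaks and 10 of the 100 strongest (10%, exact 95% interval 4.9 to 17.6%). From rank 101 to rank 300 its share was 49 of 200 peaks (24.5%, 18.7 to 31.1%). The next 300 peaks, to rank 600, included 60 on IV (20%), and the 600 after those included 139 (23.2%). The remaining 962 peaks, from rank 1201 on, included 220 on IV (22.9%, 20.2 to 25.7%). The share on IV was alike in the classes of support: 21.3% of the 150 peaks found in both ChIP lists lay on IV, as did 21.8% of the 1081 found in replicate 1 only and 22.6% of the 922 found in neither.

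Along the chromosome, peak number did not decline steadily from the left to the right arm. The left and middle parts were alike and the right part held fewer peaks. With IV divided into 3 equal segments of 5.81 Mb, the left segment held 178 peaks (37.2%, exact 95% interval 32.9 to 41.7%), the middle segment 182 (38.1%) and the right segment 118 (24.7%, 20.9 to 28.8%). Over all chromosomes 29.4% of combined peaks lay in left segments and 33.1% in right ones. In peaks per Mb the 3 segments had 30.6, 31.3 and 20.3. Among the 18 segments of the 6 chromosomes the middle and left segments of IV ranked 1 and 2, and its right segment ranked 12. IV was the only chromosome of the 6 whose left segment held more combined peaks than its right segment (178 against 118). Chromosome V had the reverse, with 73 in the left segment and 158 in the right. The other 4 had left-to-right ratios between 0.776 on II and 0.972 on III. A fall from left to right on IV was known when IV was chosen. Its contrast with the other chromosomes is therefore no independent result and was not tested.

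**Figure D2:**
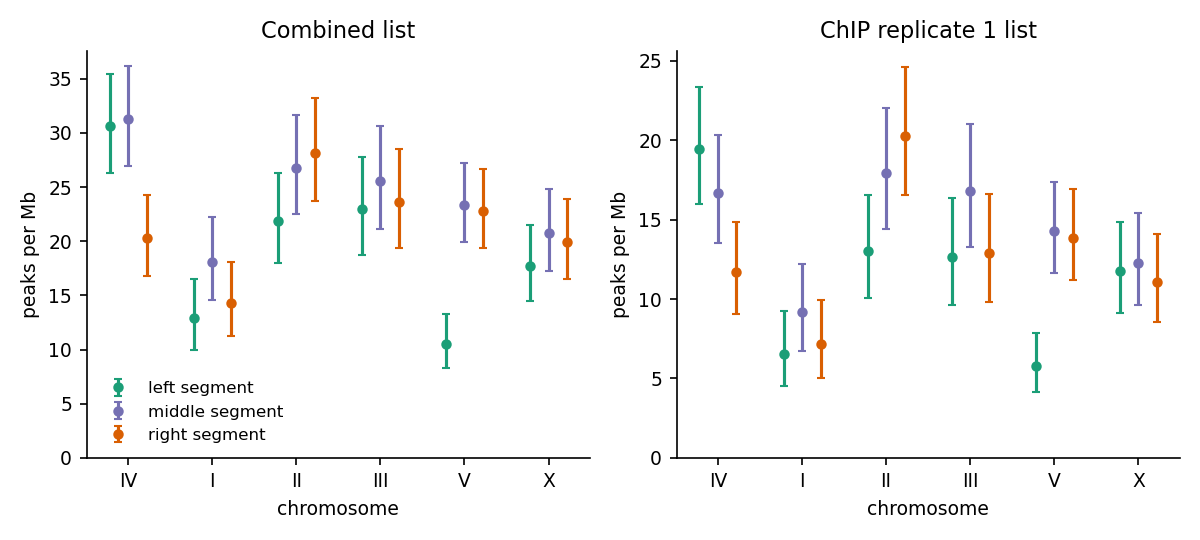
Peaks per Mb in the left, middle and right segment of each chromosome, in the combined list and the ChIP replicate 1 list, with exact Poisson 95% intervals. On IV the right segment (20.3 per Mb in the combined list) lies under the left (30.6) and middle (31.3) segments, and on V the left segment (10.5) is the low one.

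The peak counts of replicate 1 fell from the left to the right segment of IV and those of replicate 2 did not. This difference between the lists was not tested. More peaks on the left than on the right were also seen on X in replicate 1 (69 against 65), and in replicate 2 on V (10 against 7) and X (16 against 15). Replicate 1 had 113, 97 and 68 peaks in the left, middle and right segments, or 19.4, 16.7 and 11.7 per Mb. Its left segment held 40.6% of its IV peaks, against 29.4% over all chromosomes, and its right segment 24.5%, against 33.2%. Replicate 2 had 14, 9 and 16 peaks, so its right segment held 41.0% of them (25.6 to 57.9%), against 36.2% in right segments over all chromosomes. Of these peaks, 3 on the right were pieces of 1 combined peak (IV 11913202 to 11916603). Another combined peak (IV 291708 to 296250) took in 2 on the left. The intervals for replicate 2 count such pieces as separate peaks. The 32 combined peaks found in both lists fell 13, 8 and 11 over the segments. Of the replicate 2 peaks in the outer segments 46.7% lay on the left (exact 95% interval 28.3 to 65.7%), a range that holds both an even split and the 62.4% of replicate 1, so a slope of that size was not detectable with 39 peaks.

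In bins of 1 Mb the combined list held between 11 and 47 peaks, with a median of 26.5 on IV and 20 over the bins of the other chromosomes. The 5 densest of all 103 bins included 4 on IV: from the left end, its bins 3 (47 peaks), 9 (38), 5 (36) and 12 (36). Bins 2, 4 and 6, on either side of bins 3 and 5, held 22, 23 and 21, so the density rose and fell between neighbouring bins. Bins 15, 16 and 17 were low, with 16, 19 and 11 peaks. The last 0.442 Mb held 13, more than the full bin 17, so the low counts did not run to the end. Beyond 14 Mb there were 59 peaks, or 17.1 per Mb, against 29.9 per Mb up to that point; this edge was placed after the counts had been seen. Replicate 1 had 10.5 peaks per Mb beyond 14 Mb and 17.3 per Mb before it, and replicate 2 had 2.03 and 2.29.

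**Figure D3:**
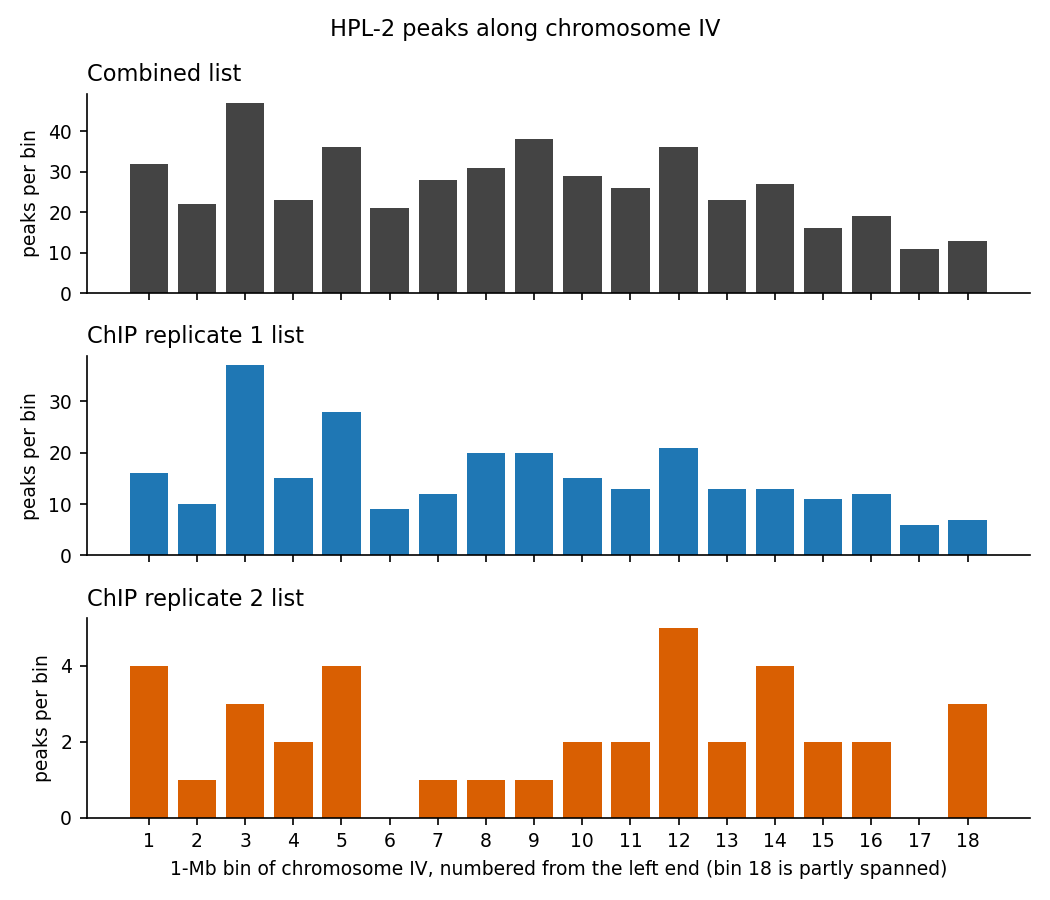
Number of peaks in each 1-Mb bin of chromosome IV, numbered from the left end, in the combined list (top), ChIP replicate 1 (middle) and ChIP replicate 2 (bottom); bars start at 0 and each panel has its own scale. Bin 3 is the tallest in the combined list (47 peaks) and in replicate 1 (37). Bin 12 is the tallest in replicate 2 (5), where 3 of the 5 are pieces of 1 combined peak. The combined bars beyond bin 14 stay under 20. Bin 18 spans only 0.442 Mb, so its bar is not comparable with those of full bins.

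The densest bin, from 2 to 3 Mb, held 47 combined peaks, 37 replicate 1 peaks and 3 replicate 2 peaks. In replicate 1 it also ranked first of the 103 bins, which is no independent result because both lists rest on the same ChIP data. Replicate 2 had more peaks in IV bins 1, 5, 12 and 14 (4, 4, 5 and 4, pieces of split peaks included). The bin from 2 to 3 Mb had 9.83% of the combined IV peaks and 13.3% of the replicate 1 IV peaks on 5.73% of the length spanned. Of its 47 peaks 36 were found in replicate 1 (76.6%), against 268 of all 478 IV peaks (56.1%) and 56.9% over all chromosomes. In 28 of the 47 (59.6%) the next peak lay within 5 kb. Merging peaks less than 1 kb apart lowered the share of IV peaks in this bin to 7.18%, so close neighbours made up part of it.

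Close spacing was also seen over IV as a whole. The median distance to the next combined midpoint was 19.1 kb on IV, 18.1 kb on II and 23.8 kb over the other 5 chromosomes. For 160 of 478 IV peaks the midpoint of the following peak was less than 5 kb away (33.5%, exact 95% interval 29.2 to 37.9%), against 28.4% over all chromosomes and 26.96% over the other 5. In replicate 1 the shares were 25.5% on IV and 20.9% elsewhere, with 27.3% on II and 25.5% on V. In replicate 2 they were 7.69% (3 peaks) on IV and 10.1% elsewhere. Each of these 3 and its next peak lay within the same combined peak, IV 291708 to 296250 or IV 11913202 to 11916603. They therefore show how broad peaks were split. Whether this held elsewhere was not counted. Denser peaks are closer together even when placed evenly, and this was not separated from clustering. Runs of peaks with neighbouring midpoints within 5 kb took in 252 IV peaks (52.7%), against 43.0% elsewhere. There were 55 runs of 2 peaks, 22 of 3 and 15 of 4 or more. Runs of 4 or more took in 15.9% of IV peaks, 16.7% of those on II and 12.2% elsewhere. The longest run of any chromosome had 9 peaks, on X, and the longest on IV had 8.

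The longest run lay at IV 2599649 to 2610202, where 8 peaks covered 49.2% of 10554 bp. A peak within it, at 2601880 to 2604059, was the fifth strongest of the chromosome (q-value 1.52e-31, 2180 bp) and the only one of the 8 in both ChIP lists. Of the other 7, 4 were found in replicate 1 only and 3 in neither. The next run, 7 peaks at IV 2765271 to 2774978, was found whole in replicate 1, which had 8 peaks there, and not at all in replicate 2. Its best peak, at 2769246 to 2770329, ranked 12 on IV (q-value 4.34e-15). A run of 6 at IV 2307334 to 2315220 and one of 5 at IV 2796474 to 2805785 lay in the same bin. These 4 runs held 26 peaks within 498 kb, and 1 of the 26 had a replicate 2 peak.

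A run of 7 and a run of 5 outside that bin held none of the 100 strongest IV peaks. The 7 peaks at IV 8527404 to 8538286 had a best q-value of 0.000178 (rank 170 on IV), and 4 of them were found in replicate 1. The 5 at IV 12897219 to 12904196 had a best q-value of 0.000689, none was wider than 232 bp, and 1 was found in replicate 1. Another pair of runs lay close together in the right segment, at IV 13346038 to 13353482 (5 peaks) and IV 13386106 to 13395686 (5 peaks). The second of these held 1 peak found in both lists, at 13392956 to 13394095, which ranked 17 on IV, and 1 of only 2 IV peaks found in replicate 2 alone.

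By windows of 100 kb on a fixed grid, the densest on IV held 12 peaks (from 2700001), all 12 of them found in replicate 1. No window of the genome had more replicate 1 peaks, but by combined peaks this window ranked 6. The densest window of each other chromosome held 13 or 14 combined peaks. The next windows on IV held 11 (from 2300001), 10 (from 8500001), 10 (from 13300001) and 9 (from 2600001). A further window of 9 peaks began at 4400001; its peaks covered 8.14 kb, the most of these. Of the 175 windows on IV 25 were empty (14.3%), against 22.9% of the 827 elsewhere. II (13.7%) and III (15.9%) had shares like that of IV, and I, V and X had higher ones. The longest stretches of IV with no combined peak ran 259 kb (from 12047148), 255 kb (from 14072103), 246 kb (from 4938093), 226 kb (from 16181368) and 199 kb (from 7948576). None of these 5 held a peak of either ChIP list. The longest gap on IV was shorter than that of any other chromosome (304 kb on III to 460 kb on I), and IV had 4 gaps over 200 kb, against 8 to 20 on the others.

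The 25 strongest IV peaks had q-values from 7.37e-82 to 7.22e-12 and all overlapped a replicate 1 peak, with 17 also found in replicate 2. They were spread as 11 in the left segment, 5 in the middle and 9 in the right. Their widths ran from 337 to 4543 bp with a median of 1061 bp. The strongest, at IV 11913202 to 11916603 (3402 bp), ranked 9 over all chromosomes. It was the strongest IV peak of replicate 1, which had it as 1 peak of 3047 bp (q-value 4.82e-65), and replicate 2 had it as 3 separate peaks with a best q-value of 8.64e-07. The second, at IV 291708 to 296250, was the widest of the chromosome (4543 bp) and lay near its left end. Replicate 1 had it as 1 peak of 4490 bp and replicate 2 as 2 peaks. Next in rank, IV 8431042 to 8433432 (2391 bp) ranked 21 in each ChIP list. These 3 were the top 3 of replicate 1 on IV in the same order, and ranked 5, 3 and 2 among the IV peaks of replicate 2.

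Below them came IV 12525785 to 12527622 (1838 bp, q-value 1.56e-39), IV 2601880 to 2604059 in the longest run, and IV 7285492 to 7287033 (1542 bp, q-value 6.29e-28). Replicate 2 had these 3 sites as peaks of 734, 437 and 474 bp, each narrower than the combined peak. The next sites were of another shape. IV 4749882 to 4750277, at rank 7, was only 396 bp wide with a q-value of 2.02e-22, and was found in replicate 1 with 387 bp and in replicate 2 with 316 bp. It was the last of a run of 4 peaks that began at 4744058. IV 654749 to 655387 (639 bp, q-value 5.51e-22) ranked 72 in replicate 1 and 31 in replicate 2. IV 15471360 to 15471756 (397 bp, q-value 6.79e-20) had its neighbour IV 15472379 to 15472736 (358 bp, q-value 3.95e-12) beside it; both were in replicate 1 and the first alone in replicate 2.

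Strong narrow peaks made up a larger share on IV than elsewhere in these lists. Of the 25 strongest on IV 5 were under 400 bp (20%): the 3 narrow sites just named, IV 1094148 to 1094529 (382 bp) and IV 4390483 to 4390819 (337 bp). The last of the 25 ranked 164 over all chromosomes, and among the 139 peaks elsewhere down to that rank 7 were under 400 bp (5.04%). The median widths of these sets were 1061 bp on IV and 1542 bp elsewhere. The sets were not matched for rank, and width fell with rank. At ranks 1 to 25 over all chromosomes the medians were 3402 bp (3 IV peaks) and 1766.5 bp elsewhere, with 0 under 400 bp. At ranks 26 to 100 they were 1542 and 1557.5 bp, with 2 of 7 and 3 of 68 under 400 bp. At ranks 101 to 300 they were 706 and 874 bp, with 8 of 49 and 14 of 151. The difference in narrow peaks was noticed in the lists and not tested.

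The widest peaks were not always the strongest or the best supported. Of the 5 widest, IV 10933873 to 10937456 (3584 bp) ranked 10 on IV with a q-value of 1.44e-18 and had no replicate 2 peak, although replicate 1 had it at 3256 bp. IV 4404882 to 4407375 (2494 bp) ranked 72 on IV, with a q-value of 5.18e-07, and was found in replicate 1 only. The other 3 were the strongest 3 peaks of the chromosome. Other strong peaks without a replicate 2 peak were IV 4258065 to 4259732 (q-value 1.05e-15), which replicate 1 had as 2 peaks, IV 2769246 to 2770329 in the second run, IV 3611771 to 3612525 (q-value 1.35e-13) and IV 9510903 to 9512567 (q-value 1.4e-12).

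**Figure D4:**
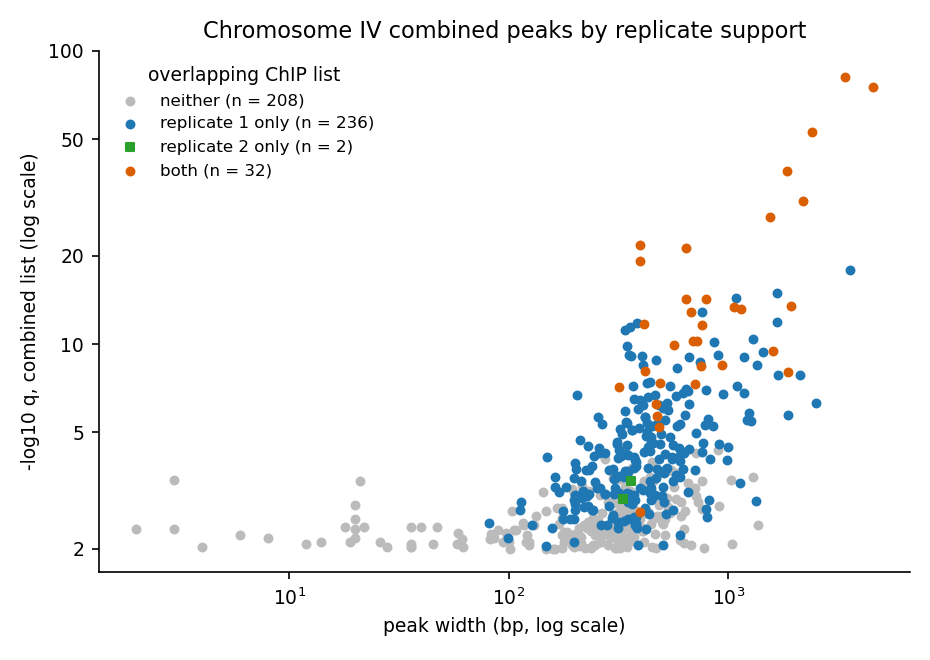
Width in bp against -log10 q-value (both log scales) for the 478 combined peaks of chromosome IV, coloured by the ChIP lists in which they were found. The 32 peaks found in both lists lie mostly at the upper right, the 208 found in neither lie low, and all but a few of the peaks under 100 bp are among these; 2 narrow peaks of 396 and 397 bp stand above others of their width.

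The support of IV peaks in the ChIP lists was that of the genome. Replicate 1 held 268 of the 478 (56.1%, exact 95% interval 51.5 to 60.6%; 56.9% over all chromosomes) and replicate 2 held 34 (7.11%, 4.98 to 9.8%; 7.35%). Both lists held 32 (6.69%; 6.94%), and neither held 208 (43.5%; 42.6%). These shares lie near those of all peaks and are no result about IV. Replicate 2 had only 39 peaks on IV, so its shares of the 478 had to be low. Support followed strength, which is no independent result because the ranks and the support rest on the same ChIP data. Replicate 1 held all of the 100 strongest IV peaks, 85 of the next 100, 54 of the 100 after those, and 29 of the 178 weakest (16.3%). Replicate 2 held 17 of the 25 strongest, 13 of the next 75, and 1 and 3 in the following classes of 100. Of the 178 weakest it held 0, which allows a share of up to 1.69% if 3 counts are taken as the limit, and up to 2.05% by the exact 95% interval. The strongest IV peak found in neither list was IV 7025977 to 7026318 (342 bp, q-value 3.36e-05, rank 126). Of the 5 strongest such peaks, 2 lay in the longest run, at 2604313 and 2599649, beside a peak found in both lists.

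**Figure D5:**
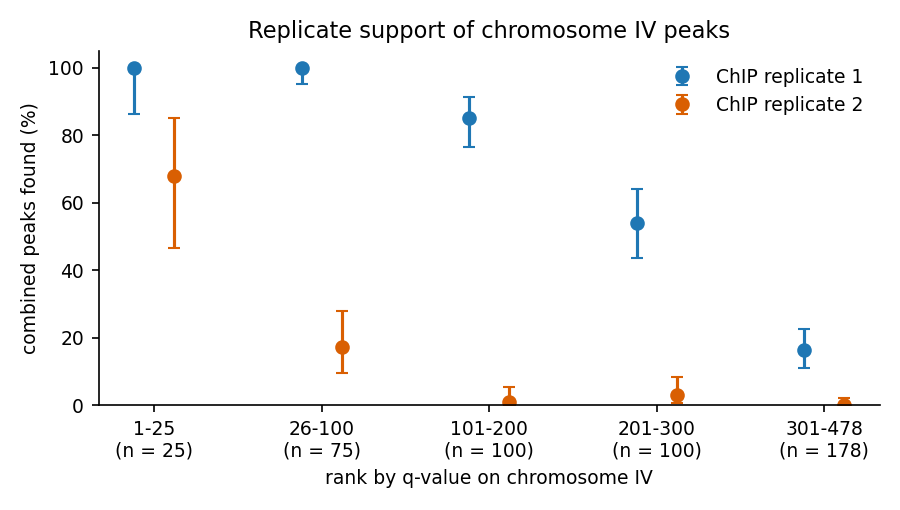
Percent of chromosome IV combined peaks found in ChIP replicate 1 and ChIP replicate 2, by rank of the q-value on IV, with exact 95% intervals. The share in replicate 1 is 100% to rank 100 and 16.3% at ranks 301 to 478; the share in replicate 2 is 68% at ranks 1 to 25 and 17.3% at ranks 26 to 100.

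By segments, replicate 1 held 110 of 178 left peaks (61.8%, 54.2 to 69.0%), 92 of 182 middle peaks (50.5%, 43.1 to 58.0%) and 66 of 118 right peaks (55.9%). Replicate 2 held 13 (7.3%), 8 (4.4%) and 13 (11.0%). The middle segment thus had as many combined peaks as the left and fewer of them in either ChIP list, with intervals that overlap.

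Matched peaks had nearly the same borders in replicate 1 and narrower ones in replicate 2. For the 264 IV peaks matched one to one, the combined peak was a median of 1.04 times as wide as that of replicate 1 (422.5 against 393 bp), and it was wider in 191 and narrower in 63. For 32 such peaks of replicate 2 the median ratio was 1.49 (682 against 386 bp), and 31 combined peaks were wider. Replicate 1 split 4 combined IV peaks in 2, and replicate 2 split 1 in 2 and 1 in 3.

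Read from the replicate lists, 32 of the 278 replicate 1 peaks on IV were found in replicate 2 (11.5%, 8.01 to 15.9%; 11.6% over all chromosomes), and 35 of the 39 replicate 2 peaks were found in replicate 1 (89.7%, 75.8 to 97.1%; 92.1%). The first share had to be low, because replicate 2 had 39 peaks on IV and replicate 1 had 278. The replicate 1 peaks found again were 609 bp wide in median, against 369 bp for the 246 others. Their median -log10 q was 8.32, and that of the others 2.97. The corresponding peaks found again elsewhere had medians of 881.5 bp and 14. Of the 10 strongest replicate 2 peaks on IV, 8 overlapped a combined peak among the 10 strongest and 9 one among the 25 strongest.

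The exception was the strongest IV peak of replicate 2, at IV 13549275 to 13549668. It was 394 bp wide with a q-value of 2.04e-11 and ranked 18 of 177 in that list. Replicate 1 had a peak with nearly the same borders, 13549274 to 13549668, at rank 480 (q-value 0.000209), and the combined list had 13549273 to 13549669 at rank 1374 over all chromosomes and 300 on IV (q-value 0.00211). The borders of this site differed by at most 2 bp between the 3 lists, while its rank differed more than that of any other of the 10. Another replicate 2 peak with a low rank in replicate 1, IV 10463105 to 10463806, stood at rank 15 on IV in replicate 2, 195 in replicate 1 and 54 in the combined list.

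A few IV peaks of the ChIP lists had no combined peak. There were 6 in replicate 1, with widths of 3, 5, 71, 71, 218 and 287 bp and q-values of 0.00323 and above, and 2 in replicate 2, of 225 and 198 bp, at IV 10231431 and 17263260. None of these 8 was in the other ChIP list. No comment line on a change by the conversion between builds stood at a peak on IV.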

How the data were processed

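The deposited lists were made by the authors with PeakSeq, per the file headers and source column, and hold start, end and q-value for every peak on WormBase WS220. The source of the combined list, the caller's settings and version, the control library and the read depth were not given in the sources used here, so depth is unknown. Lists of the Input samples were not used here. Peaks with chromosome IV were taken, ranked by q-value within a list, and counted as found in another list at an overlap of 1 bp or more. The length spanned runs to the last peak end of any list (17.4 Mb for IV). Intervals are exact (Clopper-Pearson or Poisson) at 95%, or order-statistic for medians. No test over peaks was run. The functions (Python 3.11.15, pandas 2.3.3, scipy 1.17.1) were tested on simulated lists. Named peaks are the 25 strongest, the 5 widest, the strongest per class of support, the 10 strongest of replicate 2, and the longest runs, windows and gaps; not each one is printed. The bin, edge, narrow-peak and single-site remarks were chosen after seeing the data. The members and lists were chosen with earlier results of these data known. Whether the ChIP samples are separate cultures is not in the labels.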

Additional observations from a re-analysis of the deposited data

How the results depend on the processing

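Alternatives gave 77 values, of which 63 had been planned and 14 were added once the data were seen. Of the 77, 43 stayed within the 95% interval of the main value and 34 left it. The added values were those for the share of all peaks on IV and the share in the bin from 2 to 3 Mb. Most added values stayed, and the planned values taken alone stayed less often. The share of all peaks on IV stayed within its interval under each of its 7 alternatives (21.18% to 22.03%). All 7 were among the added values and used lists from the same ChIP data. IV was also chosen because it was dense, so this is no independent result. With 1 replicate left out, peaks per Mb were 2.24 to 15.9, median width 390.5 to 394 bp, the left segment 35.9% to 40.6%, the right segment 24.5% to 41.0% (the high value without replicate 1), and peaks with a neighbour within 5 kb 7.69% to 25.5%. Among peaks in both lists, these were 1.83 per Mb and 714 bp, 34.4% lay in the right segment, and 0% had a close neighbour (0 of 32). At q-values up to the list median, the values were 13.1 per Mb, 468 bp and 24.0% with a close neighbour, with 86.9% found in replicate 1, 13.97% in replicate 2, 13.5% in both and 12.7% in neither. At q-values up to 0.0001 they were 9.0 per Mb, 527 bp and 21.02%, with 97.5%, 19.7%, 19.7% and 2.55% found, and 42.7% in the left segment. These lists are shorter by construction, which lowers peaks per Mb and close neighbours. Merging within 1 kb gave 23.2 per Mb, with 20.0% having a close neighbour. Outer segments of 25% of the length in place of equal ones held 28.2% (left) and 17.6% (right), and close neighbours were 19.7% within 2 kb and 39.5% within 10 kb. No paired analysis was possible because Input lists were not used and the values come from peak positions. Unknown depth limits comparisons of peak number between lists. The 7.69% with a close neighbour in replicate 2 rests on pieces of broader combined peaks.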
